A study of Ambystoma mexicanum with 6 samples.

Results

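Single-exon named genes are rows of the count table that carry a gene symbol, lie on a nuclear chromosome or unplaced sequence, and consist of 1 exon. A row was taken when its mean over the 6 libraries reached 10 counts, which left 1001 rows of the 99126 gene models in the table. At any level the table held 13878 named single-exon nuclear rows and 27373 named nuclear rows with several exons. Members were thus chosen by their mean count over all libraries, not by the difference between the groups. A row high in 1 group alone can still pass this rule, and such rows are counted below. The members carried 741 distinct symbols, and their lengths ran from 200 to 25383 bases with a median of 1587. Names were gene symbols for 502 rows, numbered LOC symbols for 376 and locus tags of other genomes for 123.

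All cells were of the AL1 line, wild-type fibroblasts from the axolotl, Ambystoma mexicanum, which regrows lost limbs. The 3 treated samples received 10 µM etoposide, which traps topoisomerase on broken DNA, with 1 µM nutlin-3a, which blocks MDM2, for 24 h, and then 1 µM nutlin-3a alone for 11 days, a course meant to induce senescence. The 3 DMSO samples received the solvent and were kept dividing by passaging through the 12 days. All were harvested at day 14, so the effects of the drugs, of senescence and of halted division cannot be told apart. Messenger RNA was primed on the poly(A) tail, amplified as full-length cDNA and counted against the gene models of the AmexG_v6_DD assembly, without regard to strand as far as the library procedure goes. Whether the 3 samples of a group were grown as separate cultures is not in the labels, and p-values therefore rest on a spread between libraries that may be technical only.

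Most vertebrate genes are split by introns, and those that are not fall into a few kinds. The histones that package newly copied DNA are encoded by short intronless genes, as are many small regulators and receptors. Retrocopies are intronless copies of messenger RNAs, written back into the genome by reverse transcriptase, and often resemble abundant messages such as those of ribosomal proteins. Open reading frames of mobile elements also lack introns, and large genomes hold many of each kind. No sequence is shown for any row, since the reference used here holds names only, and 385 members carried a symbol that RefSeq lists for the axolotl assembly UKY_AmexF1_1.

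Library totals ran from 28604727 to 46686876 counts, of which 7.86 to 12.1% lay on the mitochondrial genome. Of the fibroblast markers listed, 14 of 16 were found and 8 reached 1 CPM (counts per 1000000 counts of a library, scaled between libraries by edgeR's TMM method), with VIM, COL1A1 and FN1 high and DCN and THY1 near 0. Their summed level was 7244 to 7497 CPM in DMSO and 7698 to 9419 CPM in treated libraries. VIM made up most of that sum, with means of 6827 and 8285 CPM, while COL1A1, COL1A2 and FN1 went from 241, 57.6 and 150 CPM down to 157, 32.8 and 73.5 CPM. Of 7 immune markers only CD74 and CD68 reached 1 CPM, and PTPRC and SPI1 were at 0. Of 6 epithelial markers found, KRT18 was at 1360 CPM in DMSO and 1033 CPM in treated libraries, KRT5 at 0.901 and 3.34 CPM, and EPCAM at 0. The neural and Schwann list summed to 3.36 to 5.56 and 7.01 to 7.48 CPM, and the endothelial list to 0.476 to 0.503 and 1.09 to 2.06 CPM, most of it VWF in treated libraries (0.151 against 1.12 CPM). No muscle marker reached 1 CPM in either group's mean. What part other cell types had in the results was not tested, and in bulk libraries fewer cells of a type and less RNA per cell cannot be told apart.

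The members were few in counts. They took 1.18, 1.20 and 1.18% of all counts in the DMSO libraries and 0.972, 0.976 and 0.962% in the treated libraries (1.19 ± 0.00885% against 0.970 ± 0.00696%, SD, n = 3 per group). This share of unscaled library totals was lower in all 3 treated libraries and the groups did not overlap. The TMM factors were 1.18, 1.13 and 1.10 in the DMSO libraries and 0.958, 0.780 and 0.905 in the treated libraries. Divided by these factors the shares overlap between the groups, so the lower share holds for unscaled counts only. Levels ranged widely: 20 members reached 100 CPM, 155 reached 10 CPM, and 392 stayed below 1 CPM. Of the 1001 members, 980 had enough reads to be tested. The mean reached 10 counts only in the treated group for 65 members and only in the DMSO group for 52. Of these, 31 of 52 tested rose and 33 of 47 tested fell, and the choice of rows bears on those shares.

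Among the 980 tested members, 295 rose (30.1%) and 207 fell (21.1%) by edgeR's quasi-likelihood test at an adjusted p below 0.05. Over all 17424 models tested, 52.3% were called, 25.5% as higher and 26.8% as lower. The median log2 fold change, treated over DMSO, was 0.20 for the members and −0.03 for all models. Libraries of the 2 groups did not overlap in 554 members (56.5%), where the share over all models was 60.2%. Rises of at least 2-fold were called in 192 members (19.6%) and falls in 125 (12.8%), beside 11.7% and 12.9% of all models. These counts rest on the scaling: with library size alone, which shifted the median of all models to −0.40, 168 members rose and 276 fell, so that 37.8% of the calls were rises instead of 58.8%. With 1 row kept per symbol, the one with the highest mean count, 190 of 730 rows rose (26.0%) and 171 fell (23.4%), with a median of 0.07.

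Histone rows fell further than any other family of members described here. Of 17 tested rows, 13 fell and 2 rose, with a median log2 fold change of −2.63. One of them carries a histone symbol and 16 were found through the description the table pairs with a LOC symbol, a step added after values were seen. The summed histone level was 505, 635 and 667 CPM in the DMSO libraries and 121, 131 and 133 CPM in the treated libraries, that is 602 ± 86.1 against 128 ± 6.22 CPM (SD, n = 3 per group). Every treated library lay below every DMSO library. Core histones form the spool around which DNA is wound, and linker histone H1 seals it. Messages of the histones made during DNA replication end mostly in a stem loop and not in a poly(A) tail, so poly(A)-primed libraries hold them only as far as they carry such a tail.

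The histone row with the most reads per length was LOC100093145, described as histone H2A type 2-C, on chromosome arm 4q (438062733 to 438063179, plus strand, 447 bases). It had 7878, 8718 and 8489 counts in the DMSO libraries and 1081, 532 and 956 counts in the treated libraries. The groups did not overlap, and the level went from 243 ± 38.7 CPM down to 23.2 ± 2.2 CPM. On the log2 scale this is −3.39 (SE 0.15, edgeR adjusted p = 4.30e-09). A further row of the symbol, on 3p, fell from 23.8 ± 3.98 to 2.26 ± 0.257 CPM. The H2A-like row LOC101930826 on 3q had 4621, 5320 and 4864 counts against 1031, 426 and 770, a log2 fold change of −2.85. LOC100936752 on 9q, described as H1C-like, a linker histone, had 4503, 4156 and 4359 counts against 652, 615 and 674, a log2 fold change of −2.76. In all of these rows the treated libraries lay below the DMSO libraries without overlap.

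The deepest histone fall was that of LOC107298953, H2A type 2-C-like, on an unplaced sequence, with 1.53 ± 0.359 CPM in DMSO and 0.0505 ± 0.0276 CPM in treated libraries (log2 fold change −4.95, edgeR adjusted p = 2.33e-06). Linker rows LOC105896668 (H1.5-like) and LOC114667830 (H1-like) fell with log2 fold changes of −3.67 and −3.29. In each of these rows, LOC107298953 included, the mean reached 10 counts only in the DMSO group, and the choice of rows bears on such falls. LOC103391921, an H2B row on 1q, fell from 20.8 ± 2.69 to 3.35 ± 0.161 CPM. The row described as H3-like centromeric protein A, LOC114593565, the variant that marks the centromere, had a log2 fold change of −1.07 (edgeR adjusted p = 0.0128). That call was lost without DMSO replicate 3 (−1.0, edgeR adjusted p = 0.0529). Among the remaining falls, LOC115372024 (H3-like), LOC105578999 (H3.3-like) and the 5p row of LOC100093145 had log2 fold changes of −2.80, −1.85 and −2.20. For the 5p row too, the mean reached 10 counts only in the DMSO group. LOC101638942 (H2B type 1-N) had −1.20 (edgeR adjusted p = 0.0255), a call lost with DESeq2 and without DMSO replicate 1, DMSO replicate 3 or treated replicate 3 (−1.21, −1.24, −0.98 and −1.01). H4C1 on 14q had 6.37 ± 1.12 and 4.83 ± 0.489 CPM (log2 fold change −0.40, edgeR adjusted p = 0.0797) and LOC107719247, an H3-like row, had 0.344 ± 0.121 and 0.351 ± 0.0892 CPM, so neither was called. H4C1 was called lower with library size alone (−0.77) and with the length trend removed (−0.65). Among 20 tested histone rows with several exons, 14 fell and 1 rose, with a median log2 fold change of −0.90.

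The 2 histone rows that rose both carry LOC107386469, described as H2AX, the variant that is phosphorylated beside double-strand breaks. They lie on 9p, at 151206070 to 151207038 on the plus strand and at 151270860 to 151271713 on the minus strand. The first had 463, 494 and 546 counts in the DMSO libraries and 1009, 740 and 1079 in the treated libraries. The second had 444, 462 and 515 counts against 1079, 753 and 1135. All treated libraries were above all DMSO libraries in both rows, with log2 fold changes of 0.86 (SE 0.16, edgeR adjusted p = 0.000483) and 1.00 (SE 0.15, edgeR adjusted p = 0.000109). Rows of 1 symbol may share reads, and how reads that match several places were counted is not given in the sources used here.

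**Figure D1:**
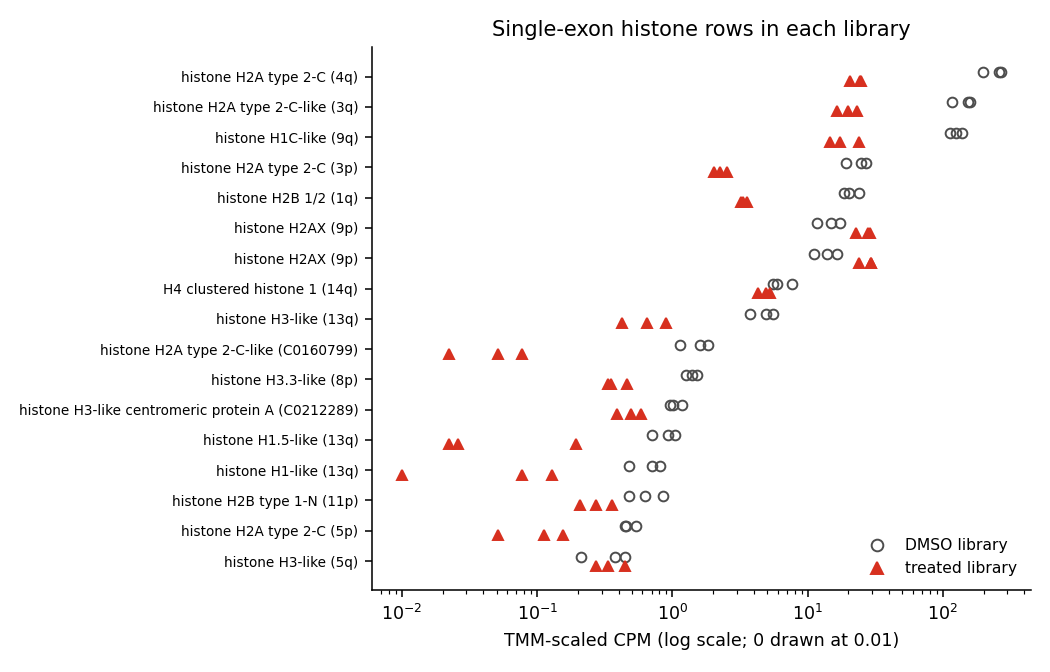
Level of each of the 17 single-exon histone rows in each library, as TMM-scaled CPM on a log axis, with DMSO libraries as open circles, treated libraries as filled triangles and a level of 0 drawn at 0.01. The treated libraries lie to the left in 14 of the 15 rows other than H2AX without overlap, and to the right in both H2AX rows.

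Some symbols sat on many rows. The table carried 277 members whose symbol is on that row alone, and of the 275 tested, 58 rose and 84 fell, with a median log2 fold change of −0.09. Of 129 tested members whose symbol is on 10 to 49 rows, 68 rose and 18 fell, with a median of 1.04. Symbols on 5 or more tested members numbered 16 and made up 146 tested rows, of which 83 rose and 24 fell. These symbols were singled out after their values were seen, so their counts describe the rows and test nothing.

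Within that group, 9 symbols had rises and no fall. Apart from RPL37A and RPS2, taken up with the ribosomal proteins, these were 7 symbols, each on 7 or more tested members: LOC113837993, CHK1 (paired in the table with the description carbohydrate kinase), LOC116043362, LOC100336828, D5F01_LYC25363, LOC103174533 and LOC100336538. For all of them but CHK1 the table gives no function, and none is given here a role. Together they named 94 members, of which 91 were tested, on 25 chromosome arms or unplaced sequences. Of the 91, 73 rose and none fell, with log2 fold changes from 0.18 to 2.01 and a median of 1.22. Their summed level was 129, 147 and 166 CPM in the DMSO libraries and 272, 426 and 355 CPM in the treated libraries, or 147 ± 18.1 against 351 ± 77.5 CPM. The groups did not overlap in the sum, and in 79 single rows every treated library was above every DMSO library. Only 15 of the rows lay in an intron of another row.

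Lengths differed between the 7 symbols. CHK1 had 16 tested rows of 523 to 1732 bases, and 15 rose. Its summed level was 36.5, 42.3 and 49 CPM in the DMSO libraries and 77.3, 129 and 112 CPM in the treated libraries. LOC113837993 had 21 tested rows of 2260 to 7047 bases, of which 16 rose, and D5F01_LYC25363 had 10 rows of 210 to 409 bases, of which 9 rose. All 9 tested rows of LOC103174533 and all 7 of LOC100336538 rose, with medians of 1.33 and 1.47. LOC116043362, with 8 rises in 16 tested rows, had the lowest median, 0.98. Rows of the 7 symbols with several exons went the same way in count, with 27 of 36 tested rows higher and 1 lower and a median of 1.12. When 1 library was left out, 58 to 76 of the single-exon rows rose and none fell, and with library size alone 58 rose with a median of 0.85. The symbols were chosen by their rises in these same libraries, so such counts do not test the rise.

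Of the other repeated symbols, 5 had falls and no rise, and the rest had both. SPEN, a transcriptional repressor in mammals, was on 5 members, all on 1p between 44368934 and 49360838, and all 5 fell, by 0.67 to 1.51 on the log2 scale. Their summed level was 82.1, 85.7 and 73.5 CPM in the DMSO libraries and 54.5, 38.0 and 47.9 CPM in the treated libraries, with no overlap. Rows of PRDM9, which in mammals places the breaks of meiotic recombination through its zinc fingers, fell in 3 of 5 cases, with a median of −1.24 and a summed level of 17.0 ± 0.515 against 7.85 ± 1.03 CPM. LOC114789697, described as zinc finger protein 135-like, fell in 4 of 8 rows, and LOC113746826, described as K02A2.6-like, in 4 of 5. LOC114595149 was mixed, with 2 rises and 5 falls in 11 rows and summed levels of 13.3 ± 0.691 and 12.4 ± 1.12 CPM that overlapped between groups. LOC105357518 was mixed too, with 1 rise and 2 falls in 5 rows. LOC112547415 had 1 fall in 5 rows, with 4 not called and a median of 0.36. Rows with several exons fell in 11 of 14 cases for SPEN, 30 of 53 for PRDM9 and 40 of 68 for LOC114789697. For LOC113746826 such rows fell in 1 of 7 cases and for LOC114595149 in 7 of 25. Rises among them numbered 2 each for PRDM9 and LOC114789697 and 4 for LOC114595149.

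**Figure D2:**
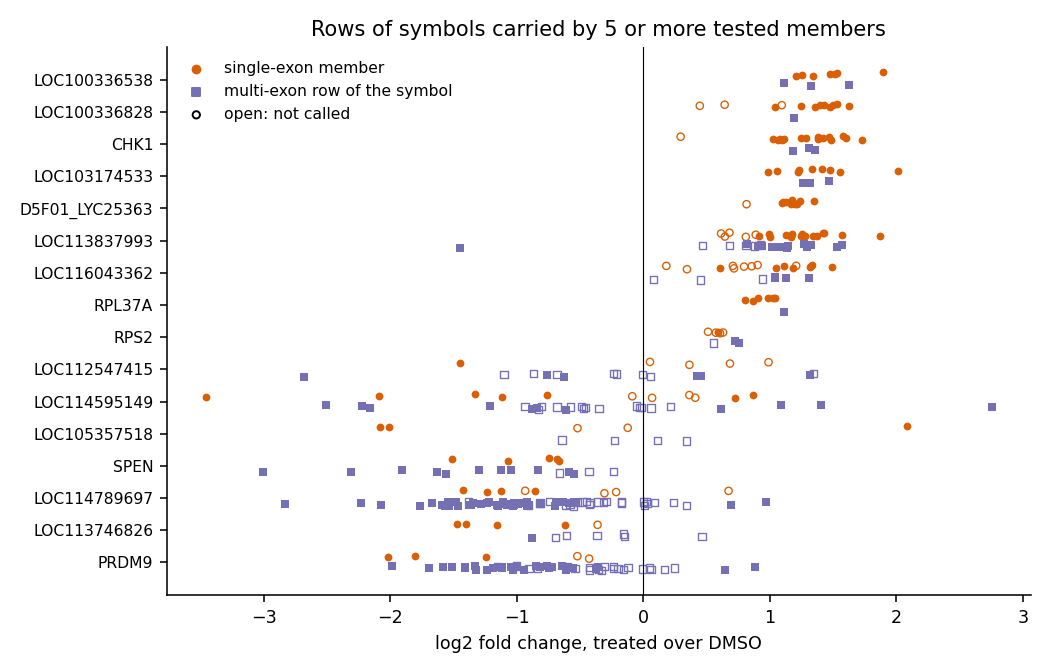
Log2 fold change, treated over DMSO, of each tested row of the 16 symbols carried by 5 or more tested members, with single-exon members as circles and rows of several exons as squares, filled where called and open where not. Rows of the 7 rising symbols, which were chosen for having rises and no fall, all lie above 0 as single-exon members. The single-exon members of SPEN and PRDM9 all lie below 0.

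Ribosomal protein names were the most frequent family, with 104 tested rows. Ribosomal proteins build the particle that makes protein, and their messages are among the most abundant in a cell. Of these rows 33 rose (31.7%) and none fell, with a median log2 fold change of 0.52. The share that rose was near that of all tested members, of which 30.1% rose and 21.1% fell. Over all models 25.5% rose and 26.8% fell. The summed level was 700, 884 and 1035 CPM in the DMSO libraries and 1009, 1812 and 1155 CPM in the treated libraries, or 873 ± 168 against 1325 ± 428 CPM. Treated replicate 1 lay below DMSO replicate 3, so the groups overlapped, and treated replicate 2 stood well above the rest. Without treated replicate 2, 13 rows rose and the median was 0.26. Without treated replicate 1, 59 rose, and without DMSO replicate 1 or DMSO replicate 2, 9 and 16 rose. With library size alone 6 rose, and after the trend with length was removed 10 rose. Ribosomal rows with several exons had 80 rises (46.2%) and 23 falls (13.3%) in 173 tested rows, with a median of 0.39.

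RPS2, a protein of the small subunit, was on 5 tested members, of which 1 rose and 4 were not called, with log2 fold changes of 0.51 to 0.63. The most abundant of them, on an unplaced sequence, had 121, 155 and 184 CPM in the DMSO libraries and 203, 326 and 162 CPM in the treated libraries. Treated replicate 3 lay within the DMSO range (log2 fold change 0.59, edgeR adjusted p = 0.0358), and the call was lost without DMSO replicate 1 (0.44), DMSO replicate 2 (0.58) or treated replicate 2 (0.26), with library size alone (0.19), with DESeq2 (0.60) and with the length trend removed (0.34). The most abundant of 3 tested RPS2 rows with several exons, on 2p, had 3865, 4959 and 5311 CPM against 6905, 11294 and 5209 CPM, the same order of libraries at a far higher level. All 6 tested members named RPL37A, a protein of the large subunit, rose, by 0.80 to 1.04, from a summed 45.3 ± 15.9 to 87.1 ± 37.6 CPM. The sums overlapped, with DMSO replicate 3 at 62.7 CPM and treated replicate 1 at 56.5 CPM, and 1 of the 6 rows was without overlap. The most abundant, on 7q, lost its call without treated replicate 2 (0.59) or DMSO replicate 1 (0.69), with library size alone (0.51), with DESeq2 (0.92) and with the length trend removed (0.66).

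Of 54 tested rows with names of other abundant messages, 9 rose and 9 fell, 16.7% each, beside 25.5% and 26.8% of all models. Rows of this family with several exons were called more often, with 115 rises (33.6%) and 109 falls (31.9%) in 342 tested rows. Their median level was 78.3 CPM, against 3.54 CPM for the 54 rows. The median log2 fold change of the 54 rows was 0.13, which turned to −0.24 with library size alone and −0.03 with the length trend removed. Rises included 2 ferritin heavy chain rows, which store iron: FTH1 on 6p had 115, 104 and 104 counts against 260, 305 and 331 (log2 fold change 1.48), and FTH1.1.S on 1p rose by 1.35. COX7B.L, a subunit of the respiratory chain, rose from 54.8 ± 12.4 to 131 ± 37.7 CPM. Falls included HNRNPK, which binds RNA in the nucleus, on 1q (33534606 to 33537786, minus strand). That row had 469, 501 and 480 CPM against 249, 249 and 233 CPM, with no overlap (log2 fold change −0.99 with SE 0.12, edgeR adjusted p = 1.13e-05). The HNRNPK row with several exons, on 6p, had 1660 ± 60.6 CPM in DMSO and 518 ± 28.5 CPM in treated libraries, with a log2 fold change of −1.68. Of 7 tested rows with SNRP or SF3 symbols, named for parts of the spliceosome and picked out after values were seen, 3 fell and 4 were not called. The falls were 1 row each of SNRPD1, SNRPF and SNRPG, which fell by 1.36, 1.26 and 1.30, all at a mean below 1 CPM. Another 2 rows of SNRPD1, and those of SF3A2 and SF3B5, were not called, though SF3B5 was called lower with library size alone (−0.55) and with the length trend removed (−0.37).

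A further pair of rows of 1 symbol went opposite ways. COPB2 encodes a subunit of the coat of transport vesicles. Its single-exon row on 13p (26707486 to 26712831, minus strand) had 163, 139 and 138 CPM in the DMSO libraries and 190, 236 and 197 CPM in the treated libraries. The treated libraries were all higher (log2 fold change 0.50 with SE 0.13, edgeR adjusted p = 0.00460), though with library size alone the value was 0.12 and not called. The row with several exons on 7q had 35.5, 43.5 and 40.8 CPM against 25.2, 25.9 and 31.6 CPM, all lower (−0.53, edgeR adjusted p = 0.00372). COPA, another coat subunit, had 158 ± 41.4 and 167 ± 19.3 CPM and was not called.

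Zinc finger names, most of them DNA-binding C2H2 proteins, fell in 23 of 45 tested rows and rose in 2, at a median of −0.81 (log2 fold change). Of the 45, 36 were found by description. LOC106676576, described as zinc finger MYM-type protein 1-like, was not taken into the 45, though it had the largest rise of all members (7.71), given below. The 2 rises among the 45 were ZNF3 (0.64) and LOC102450780, RFP-like (3.75, from 0.0367 ± 0.0321 to 0.576 ± 0.253 CPM). The call of ZNF3 was lost without DMSO replicate 2, DMSO replicate 3 or treated replicate 2 (0.65, 0.47 and 0.45). LOC102450780 reached the mean count of a member only through the treated group, so the size of its rise describes a chosen row and tests nothing. Zinc finger rows with several exons stood close to the 45, with 374 falls and 38 rises in 797 tested rows and a median of −0.58. Among the falls, LOC114789697 on 4q had 15.8, 20.4 and 15.4 CPM against 8.39, 5.62 and 9.46 CPM, without overlap (−1.13). Left-out libraries gave 19 to 22 falls.

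Intronless regulators of transcription were few and lower where called. Rows of the same families with several exons also fell more often than they rose. IER5L, an immediate early response gene inside an intron on 8p, had 23.6, 25 and 19.7 CPM in the DMSO libraries and 4.36, 3.34 and 2.71 CPM in the treated libraries. All treated libraries were far lower (log2 fold change −2.71 with SE 0.18, edgeR adjusted p = 8.49e-08), and IER5.L on 1q fell by 0.89. CEBPD and CEBPB, leucine zipper factors active in inflammation, had log2 fold changes of −0.48 (edgeR adjusted p = 0.0299) and −0.16 (edgeR adjusted p = 0.475), and JUND, a subunit of AP-1, had 0.17 (edgeR adjusted p = 0.484). CEBPB was called lower with library size alone (−0.53, edgeR adjusted p = 0.0489). The falls in this group of 5 tested rows numbered 3, where 26.8% of all models fell. With library size alone there were 4 falls, and without DMSO replicate 2, DMSO replicate 3 or treated replicate 3 there were 2. Of 9 tested rows of the group with several exons, 5 fell and 1 rose, with a median log2 fold change of −0.48. Rows of other DNA-binding factor families were taken by symbol only. LOC109080723, described as transcription factor Sox-21-B-like and given below among the falls, is therefore not counted with them. Of the 6 tested rows taken by symbol none rose and 2 fell: POU3F4, from 9.14 ± 1.12 to 2.38 ± 0.692 CPM, and FOXD3, a neural crest factor, from 7.33 ± 0.485 to 3.19 ± 1.62 CPM. SOX4 and FOXQ1 were not called, at −1.05 and −0.74, though without treated replicate 1 or with library size alone the falls in this group numbered 4. Among 104 tested rows of these other families with several exons, 46 fell and 10 rose, with a median of −0.60.

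Small GTPases are switches of membrane and cytoskeleton traffic. The 6 tested rows of this family were taken by symbol only. The 2 rows of LOC115087353, described as ADP-ribosylation factor-like, are not among them, and both rose, as given below. RHOB, which acts on endosomes and actin, was the most abundant, with 299, 308 and 268 CPM against 413, 365 and 349 CPM (log2 fold change 0.36, edgeR adjusted p = 0.0234). All treated libraries were higher, yet the call was lost without DMSO replicate 2, DMSO replicate 3 or treated replicate 1 (0.40, 0.30 and 0.30) and the value with library size alone was −0.0032. RAP2B on 10p rose from 39.9 ± 3.74 to 75.2 ± 3.34 CPM (0.91, edgeR adjusted p = 1.89e-05), and CDC42, which sets cell polarity, rose by 0.90 in a row of 324 bases. Without DMSO replicate 2 or DMSO replicate 3 only 1 of the 6 small GTPase rows rose, where 3 had, and without any 1 library other than treated replicate 1 only 1 fell, where 2 had. With DESeq2, 2 of the 6 rows rose and none was called lower. A row of RAN, which drives nuclear transport, fell by 0.87, and a second RAN row had −0.68 without a call. The other fall was that of RASL10B. Its call was lost with upper-quartile scaling (−0.77), with DESeq2 (−0.87) and with the length trend removed (−0.69). It was lost too when any 1 library other than treated replicate 1 was left out. Of the adaptors that hand proteins to ubiquitin ligases, FBXL14 on 12q fell from 89.9 ± 4.63 to 27.7 ± 7.93 CPM and KBTBD7.S on 7q from 44.4 ± 2.60 to 21.1 ± 2.34 CPM. TRIM69 fell by 1.90, FBXO2 rose by 1.05, the only rise among 6 such rows and none with library size alone or without DMSO replicate 3, and FBXO31 and UBE2L3 were not called.

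Heat shock rows went both ways. LOC115080798 on 13q, described as heat shock 70 kDa protein, a chaperone induced by misfolded protein, had 88.6, 82.5 and 79.8 CPM in the DMSO libraries and 205, 206 and 190 CPM in the treated libraries. It rose in all 3 treated libraries (log2 fold change 1.26 with SE 0.11, edgeR adjusted p = 7.60e-07). HSP70 on 10p had 54.2, 55.4 and 48.9 CPM against 39.3, 39.8 and 34.8 CPM and fell in all 3 (−0.48), as did HSPA9, the mitochondrial member, from 175 ± 20.7 to 80.4 ± 2.89 CPM. CCT3, a ring chaperonin subunit, rose by 0.44. Among 10 tested rows taken by symbol as channels, junctions and adhesion 4 rose, KCNE5, GJB7, CLDN3.L and a CDH1D row, and 3 fell, TMEM231, TMEM200A and TLR22A. Those that fell carry general transmembrane (TMEM) or Toll-like receptor (TLR) symbols, not names of channels or junctions. The call of TLR22A was lost with upper-quartile scaling (−0.60), with DESeq2 (−0.68) and with the length trend removed (−0.52). Without DMSO replicate 1, DMSO replicate 2 or treated replicate 3, 1 fall was left in this family. GJB7, a gap junction protein, had 17, 22 and 12 counts against 68, 67 and 48. Of 2 intronless G protein coupled receptors, LPAR6.S, a receptor for lysophosphatidic acid, fell from 6.29 ± 0.597 to 3.14 ± 0.307 CPM, and F2RL1 was not called (−0.49).

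Rows named for mobile elements or genes derived from them numbered 7, and 2 rose (28.6%, beside 25.5% of all models). Of 42 tested rows of this family with several exons, 5 rose and 15 fell, with a median log2 fold change of −0.20. With library size alone none of the 7 rose and 2 fell, and at a mean CPM of at least 1 the 2 rows tested were not called. POL, a name of retroviral polymerase that the table pairs with an unrelated description, had 0.503, 0.418 and 0.793 CPM against 1.19, 1.47 and 1.01 CPM (log2 fold change 1.09, edgeR adjusted p = 0.0149). Leaving out DMSO replicate 1 or DMSO replicate 2 ended this call (1.00 and 0.91). LOC106702273, an endogenous retrovirus envelope-like row, had 0.84 (edgeR adjusted p = 0.0462). Without DMSO replicate 1, or without DMSO replicate 2, no row of these 7 was called. TIGD5, derived from a tigger transposase, had 21.0 ± 1.73 and 19.4 ± 3.66 CPM.

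The largest rise was that of LOC106676576, described as zinc finger MYM-type protein 1-like, on 1p (1225242136 to 1225242780, minus strand). It had 1, 0 and 0 counts in the DMSO libraries and 121, 84 and 87 in the treated libraries, a summed ratio of 280 after TMM scaling (exact 95% interval 49.8 to 11091, counting error only). All but 1 of its reads came from treated libraries, and its unnamed host on the same strand rose by 2.94. LOC114443000 had 0, 0 and 1 counts against 35, 10 and 15, a ratio of 57.5 (9.93 to 2309). LOC106676576 and LOC114443000 reached a mean of 10 counts only through the treated group, so their ratios describe chosen rows and test nothing. MTHFS, which returns stored folate to the active pool, on 4p (401429013 to 401434058, minus strand), had 31, 30 and 43 counts against 517, 297 and 398, without overlap. The level rose to 11.1 ± 0.742 CPM over 1.01 ± 0.309 CPM in DMSO (log2 fold change 3.47 with SE 0.22, edgeR adjusted p = 4.22e-08). LOC115087353, described as ADP-ribosylation factor-like, rose in 2 rows, by 3.13 on 7p and by 2.48 on 13q. CLDN3.L, a tight junction claudin, rose by 2.66 at a low level. It too reached a mean of 10 counts only through the treated group, so the size of its rise describes a chosen row.

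Among falls outside the histones, LOC109080723, described as transcription factor Sox-21-B-like, had 29, 27 and 10 counts in the DMSO libraries and 3, 0 and 0 in the treated libraries, a scaled ratio of 23.0 (exact 95% interval 7.52 to 114). PARPI_0007353 had 25, 25 and 17 counts against 0, 0 and 2, a ratio of 35.0 (9.31 to 295). In both rows the treated libraries were at or near 0. LOC106565892, of unknown function, had 44, 41 and 34 counts against 2, 1 and 4 (log2 fold change −4.08). Each of these rows reached a mean of 10 counts only through the DMSO group, so the sizes of their falls describe chosen rows and test nothing. TRIL, an accessory of Toll-like receptor signalling in mammals, fell from 0.680 ± 0.257 to 0.0545 ± 0.0560 CPM. It too reached a mean of 10 counts only through the DMSO group, and the same limit holds for its fall.

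Some members outside the families were picked after their values were seen. Rows of PSMB9, a subunit of the immunoproteasome, rose by 1.81 and 1.82. A pair of neighbouring rows on 1p described as HERC6, an interferon-induced ligase in mammals, LOC115089699 and LOC102563590, rose by 2.26 and 2.44. In the same libraries the summed immune markers were 164 to 187 CPM in DMSO and 390 to 472 CPM in treated, almost all of it CD74, and the part of immune cells was not tested, with PTPRC and SPI1 at 0. CDT1, which licenses origins of replication, on 8q (414884005 to 414886618, plus strand), had 5.26, 4.60 and 3.65 CPM against 0.962, 1.01 and 1.19 CPM, and fell by 2.10. WDHD1, which works at the replication fork, fell from 23.8 ± 6.20 to 6.60 ± 0.804 CPM, and FAM83D, of the mitotic spindle, fell by 3.12.

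The most abundant member was DNTS_000280 on 1p (842668059 to 842669052, plus strand), a locus tag with no description. It had 1263, 1417 and 1530 CPM in the DMSO libraries and 1599, 2478 and 1910 CPM in the treated libraries. The treated libraries were all higher (log2 fold change 0.51, edgeR adjusted p = 0.0210), but the call was lost without DMSO replicate 1 (0.43) or DMSO replicate 2 (0.51), with library size alone (0.12) and with the length trend removed (0.26). Per kilobase of its 994 bases it stood at 1710 CPM, the highest of all members. Next per length were LOC111650550, described as 40S ribosomal protein S8-like, at 365 CPM per kilobase, the H2A row on 4q at 297, and PFDN1, a subunit of the chaperone prefoldin, at 268. PFDN1 rose from 88.6 ± 7.04 to 173 ± 45.1 CPM (0.96, edgeR adjusted p = 0.000230).

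Rows named for mitochondrial genes also lie in the nuclear assembly, and 7 members carry such names. COX1, an enzyme subunit of respiration encoded in mitochondria, had a row of 3077 bases on 2q with 13861, 7088 and 6816 counts in the DMSO libraries and 11664, 9269 and 10150 in the treated libraries. The groups overlapped and DMSO replicate 1 was the highest. The COX1 row of the mitochondrial genome had 371677, 185784 and 173211 counts against 302811, 263503 and 278084, and its ratio to the nuclear row stayed between 25.4 and 28.4 in the 6 libraries. Neither row was called, with log2 fold changes of 0.18 and 0.24, though without DMSO replicate 1 the nuclear row was (0.45, edgeR adjusted p = 0.0409). COX2 rows on 1p, 2q and 5q had log2 fold changes of 0.41, 0.47 and 0.44 beside 0.29 for the mitochondrial row, and none was called. COX3, CYTB and ND4L had 0.15, 0.97 and 0.26 beside 0.0082, 0.70 and 0.35. Of these only the mitochondrial CYTB row was called (edgeR adjusted p = 0.00438). Their ratios to the nuclear row varied more than that of COX1, from 147 to 249, 1885 to 6385 and 0.64 to 1.0.

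Most members stood apart from other rows. Of the 1001, 783 overlapped no other row, 178 lay inside an intron and 40 overlapped an exon. The median distance of those apart to the nearest row was 40.6 kb. Members inside an intron rose in 66 of 178 cases and fell in 27, at a median of 0.41 on the log2 scale, and those that overlapped an exon rose in 6 of 39 tested cases and fell in 16, with a median of −0.21. Intronic members were shorter, with a median of 736 bases against 1728 for tested members apart. Without DMSO replicate 1, 41 intronic members rose, and with library size alone 34 rose and 43 fell. With the host on the same strand 36 of 81 rose, and with the host on the opposite strand 30 of 97 rose. The difference between these shares was not tested, and as reads do not mark strand, those of a member and of unspliced host RNA cannot be told apart.

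For 110 intronic members the host was itself tested. Over these 110 pairs the host rose in 32 and fell in 24. Of the 38 that rose, 17 had a host that rose, 7 a host that fell and 14 a host without a call. Of the 20 that fell, 5 had a host that fell, 5 a host that rose and 10 a host without a call. Across these pairs Spearman's rho between the log2 fold changes was 0.18, with 0.31 for the 51 on the same strand and 0.06 for the 59 on opposite strands, given as a description of pairs that share libraries and reads. LOC115080798, the heat shock row above, lies on the same strand in LSM2, which had 44.7 ± 2.53 and 35.2 ± 5.75 CPM and fell by 0.35. RPL37A on 7q lies opposite in PDE2A, a phosphodiesterase, which stood at 1.44 ± 0.340 and 2.01 ± 0.864 CPM, far below the member. LOC111151376, described as methyltransferase like 16, had 37.1, 42.1 and 38.8 CPM against 21.2, 18.6 and 23.9 CPM and fell by 0.89, and its host DYNC2H1, a dynein heavy chain on the same strand, rose by 0.93. CDT1 fell inside TNKS2 on the same strand, which rose by 0.80, and the H2B row LOC103391921 fell opposite ST3GAL3, which rose by 1.72 at a low level. MTHFS, POU3F4 and LPAR6.S overlap an exon of a row on the opposite strand and HSPA9 one on its own strand, so their reads may be shared. MAB21L1 on 7q fell by 0.75 inside NBEA, which was not called (0.34).

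**Figure D3:**
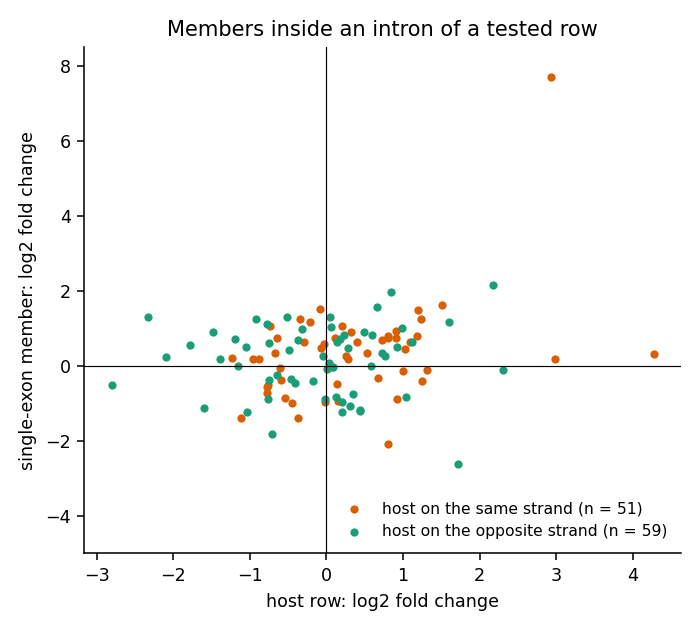
Log2 fold change, treated over DMSO, of the 110 single-exon members inside an intron of a tested row against that of the host row, with 51 hosts on the same strand and 59 on the opposite strand in separate colours. Points spread over all 4 quadrants. In 17 pairs member and host both rose, where 38 members and 32 hosts rose over the 110 pairs.

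Change went with length. Of 211 tested members of 500 bases or less, 77 rose and 19 fell, with a median log2 fold change of 0.52. Of 185 members of 501 to 1000 bases, 64 rose and 17 fell, with a median of 0.41. In the class of 1001 to 2000 bases 57 of 154 rose and 24 fell, and in that of 2001 to 4000 bases 60 of 187 rose and 59 fell. Of 243 members over 4000 bases, 37 rose and 88 fell, with a median of −0.33. Spearman's rho between length and log2 fold change was −0.30 over the members and −0.16 over all named rows with several exons, as a description across rows that share libraries. Rows of 1000 bases or less made up 35.9, 40.2 and 43.5% of the members' counts in the DMSO libraries and 41.1, 52.2 and 45.8% in the treated libraries. The groups overlapped in this share, and treated replicate 2 was the highest. Without treated replicate 2, 103 of the short members rose and the median was 0.26, where 141 had risen with a median of 0.48.

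**Figure D4:**
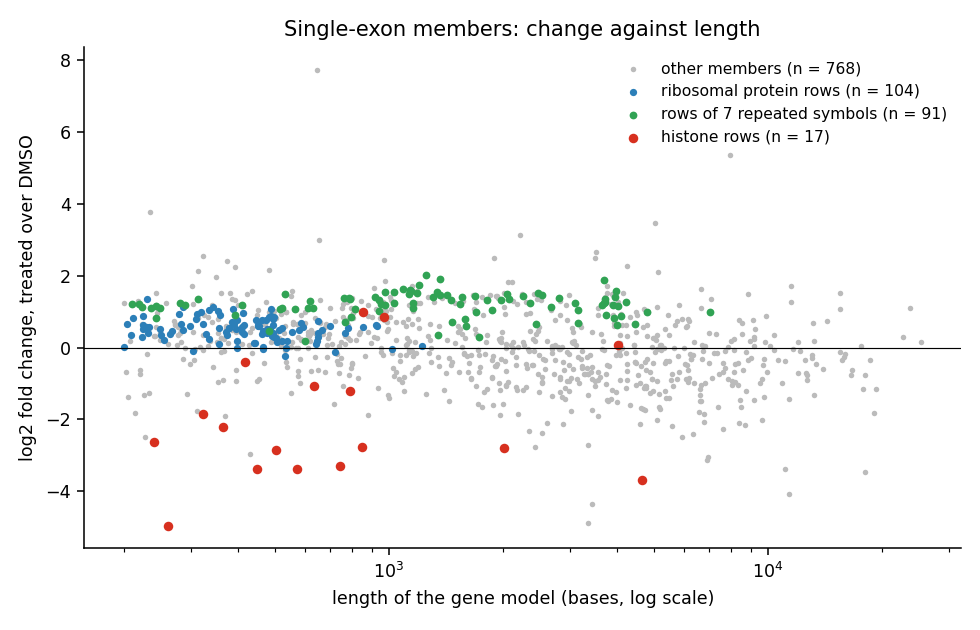
Log2 fold change, treated over DMSO, of each of the 980 tested members against the length of its gene model on a log axis, with 17 histone rows, 104 ribosomal protein rows and 91 rows of the 7 rising symbols in colour and the rest in grey. Short rows lie mostly above 0 apart from the histones, and rows over 4000 bases lie mostly below 0.

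Members were set beside rows with several exons matched for length and level, 1 per member, each taken once. The matched rows had a median length of 1566 bases and a median level of 1.58 CPM, against 1573 bases and 1.59 CPM for the members. Among them 246 rose (25.1%) and 198 fell (20.2%), with a median log2 fold change of 0.08. The median of the members was 0.12 above that of their matches, and groups did not overlap in 554 members (56.5%) and 536 matched rows (54.7%). In single treated libraries the difference was 0.02, 0.24 and 0.06 (SD 0.11, on log2 of CPM with 0.5 added), so it was of the size of the spread between libraries. It was largest in treated replicate 2, and the matched comparison was not repeated without that library. Matched on level alone the difference was 0.29. Without the histone rows and the rows of the 16 repeated symbols, 210 of 817 members rose (25.7%) and 170 fell (20.8%), with a median of 0.15.

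Few short rows with several exons exist to match. Only 164 tested named rows with several exons were of 500 bases or less, for 211 members, so the shortest members were set beside somewhat longer rows. In that class 37 of 161 matched rows rose and 22 fell, with a median of 0.11. Their median level was 1.15 CPM, against 1.83 CPM for the members of that class. In the class of 501 to 1000 bases 82 of 235 matched rows rose and 40 fell, with a median of 0.27. Here the matched rows had the higher median level, 2.24 against 1.57 CPM, so level was not matched within these classes. Over 4000 bases 32 of 240 rose and 69 fell, with a median of −0.25. Matched rows therefore carried a length trend of their own, with Spearman's rho of −0.15.

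**Figure D5:**
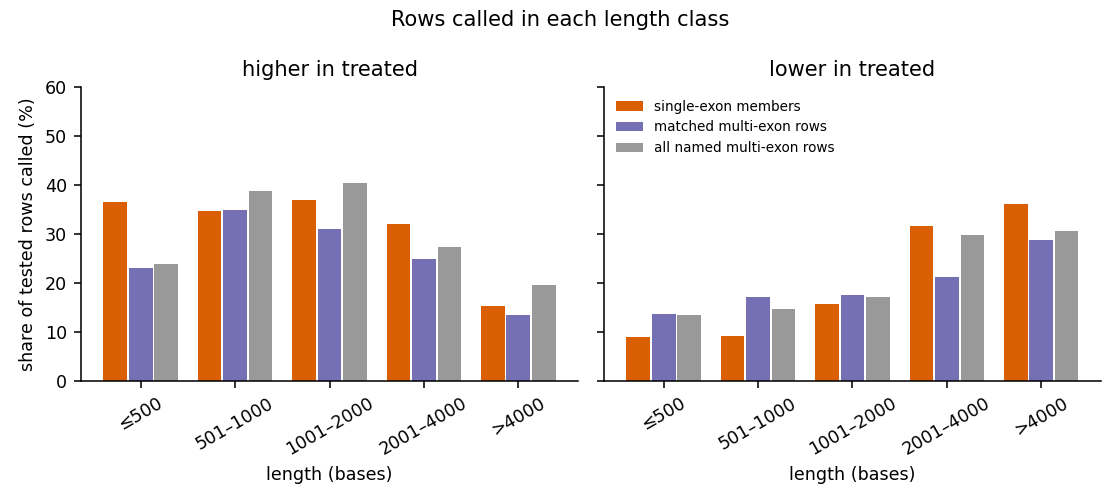
Share of tested rows called higher (left) and lower (right) in treated libraries in 5 length classes, for single-exon members, for the rows with several exons matched to them and for all named rows with several exons. In the shortest class 36.5% of members and 23.0% of matched rows were higher, and over 4000 bases 36.2% and 28.7% were lower. Median levels in the shortest class were 1.83 CPM for members and 1.15 CPM for matched rows, so they were not equal in level there.

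Around the mean of 10 counts that makes a row a member, the values were low on both sides. Just above it lay LOC108792027, described as a potassium channel, with 0.226 ± 0.0898 and 0.351 ± 0.135 CPM, a row of LOC113837993 on 4q with 0.182 ± 0.107 and 0.356 ± 0.0796 CPM, and LOC106702022 with 0.382 ± 0.114 and 0.174 ± 0.121 CPM. Just below it lay LOC103346740, described as a subunit of NADH dehydrogenase, with 0.270 ± 0.0385 and 0.288 ± 0.118 CPM, EEF1E1 on 6p with 0.375 ± 0.0646 and 0.177 ± 0.0616 CPM, and VMD2 with 0.321 ± 0.0826 and 0.239 ± 0.0415 CPM. In these 6 rows the counts per library were too few to show any but large differences. Raising the mean to 50 counts left 526 tested members, of which 187 rose (35.6%) and 131 fell (24.9%).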

How the data were processed

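The file the authors deposited holds raw counts, whole numbers with no scaling, for each gene model and sample. Polyadenylated RNA of 6 samples had been copied and amplified by a modified Smart-seq2 procedure and sequenced as paired-end reads, per the labels' protocols. The submitters' processing notes name bcl2fastq 2.20.0, STAR 2.7.7a and featureCounts 2.0.1. The treatment of multi-mapping reads is not given in the sources used here. The 92 spike-in rows held 0 counts and were left out. Every count column was mapped to a sample through its label.

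Counts were tested with edgeR 4.0.16 in R 4.3.3: filterByExpr, TMM scaling (trimmed mean of M-values), the robust quasi-likelihood F-test, two-sided, and Benjamini-Hochberg adjustment over 17424 models, with a call at an adjusted p below 0.05. Values are TMM-scaled CPM, as mean ± SD of 3 libraries. Matches were chosen by nearest distance in log2 length and log2 mean CPM. Alternatives were other scalings, DESeq2 1.42.0, other filters, a length correction, other member rules and leaving out each library. Intervals and floors cover counting error only, since reads carry no molecular identifiers.

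Members, families and lists were chosen with earlier results of these data known. Named members are, among those called and without overlap, the 10 largest rises and 10 falls, the 10 highest in CPM, the 3 highest of each family, the 6 highest inside an intron of a tested row, the 4 highest symbols that a row of several exons shares, the highest per kilobase, and those next to the mean of 10 counts. Histone rows were all named. A few members are counted but not reported singly here. One locus-tag row that the histone pattern also took was left out. Others, named in small counts or picked for their function, were chosen after their values were seen. The description step added members only to the histone, ribosomal protein, mobile-element, zinc finger and heat shock families. Rows with a LOC symbol whose description would place them in another family are not counted there.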

Additional observations from a re-analysis of the deposited data

How the results depend on the processing

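No paired analysis was possible because the replicate numbers follow the order of the records and pair no samples. With library size alone 168 members rose, and 71 of the short members (1000 bases or less) rose and 55 fell. Under that setting 14 members over 4000 bases rose, 34 intronic members rose and 43 fell, and the families gave 6 ribosomal rises, 1 zinc finger rise, 3 housekeeping rises and 14 falls, and 2 channel rises. Upper-quartile scaling gave 50 ribosomal rises and 1 fall in the family of channels, junctions and adhesion, and DESeq2 also gave 1 fall in that family. A mean CPM of at least 1, which tests 608 members, gave 6 histone falls, 1 zinc finger rise, 5 housekeeping falls, 2 channel rises, 55 rises among repeated symbols, 46 among the 7 rising symbols and 20 falls of short members. With the length trend removed 10 ribosomal, 5 housekeeping and 90 short members rose. A mean of 50 counts left 318 calls, 187 higher and 131 lower, and 1 row per symbol left 190 rises. The matched difference was 0.29 on level alone, 0.24 beside all named rows with several exons and 0.09 for members apart from other rows. Leaving out 1 library gave 9 to 59 ribosomal rises, 1 to 2 zinc finger rises and 41 to 74 intronic rises. It gave 1 to 3 falls in the family of channels, junctions and adhesion. The causes of these moves were not tested, other than that fewer rows are tested under stricter filters.

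Of 84 named tested members 56 kept their direction and call under every setting that tested them. A setting that did not test a member, such as a mean CPM of at least 1 for low rows, was not counted for it. In single settings 23 of the values turned sign. None of these values was called but that of LOC107108343 with library size alone (edgeR adjusted p = 0.0190). With library size alone these were FBXO31 (−0.32), COX1 (−0.22), DR999_PMT11065 (−0.034), RHOB (−0.0032), LOC107719247 (−0.29), COPA (−0.29) and LOC107108343 (−0.36). With the length trend removed they were FBXO31 (−0.19), CEBPB (0.013) and TIGD5 (0.065), and with no low-count filter LOC107108343 (−0.039). Leaving out 1 library gave −0.083 to 0.20 for FBXO31, −0.20 to 0.26 for LOC107719247, −0.061 to 0.30 for COPA, −0.012 to 0.025 for LOC107108343, −0.31 to 0.016 for CEBPB, −0.26 to 0.010 for TIGD5 and −0.40 to 0.025 for TMEM187. Depth limits the 392 members below 1 CPM most.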
